A study of Homo sapiens with 6 samples.

Results

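The NRF2 antioxidant target genes are a set of 9 genes, NQO1, GCLM, GCLC, HMOX1, TXNRD1, SRXN1, SLC7A11, OSGIN1 and ME1, that are textbook targets of the transcription factor NRF2. They were chosen by name, and each was read from the probe set whose annotation held its symbol and no other. Of the 9, 8 were measured in this way, among 13139 genes with such a probe set. NQO1, the quinone reductase gene, was not measured, because the 1 probe set annotated to it also carried a second gene symbol. Each of the other 8 had 1 such probe set, so no choice between probe sets was needed.

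The study compared HCT116 cells, an established human colon carcinoma line, of 2 genotypes, with 3 arrays each. The BRCA2 knockout cells lacked both alleles of BRCA2, a mediator of homologous recombination, which had been targeted one after the other by homologous recombination. The wild-type cells were the parental line from ATCC. Neither genotype received a treatment, and both grew in serum-supplemented McCoy's 5A medium. The sample titles call the arrays of a genotype technical replicates, while the extraction protocol speaks of 3 samples of each, and neither says whether these were separate cultures. The p-values therefore measure the spread between these arrays, which may be technical, and loss of BRCA2 cannot be told apart from any other difference between the 2 lines. RNA came from whole cultures, so a lower level in every cell cannot be told apart from fewer cells expressing a gene.

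NRF2, encoded by NFE2L2, is held at a low level in unstressed cells by KEAP1, which hands it to a CUL3 ubiquitin ligase. Oxidants and electrophiles release it, and it then pairs with a small MAF protein on antioxidant response elements near its target genes, where BACH1 can compete with it. The targets supply cystine, glutathione, NADPH and reduced thioredoxin, and degrade heme. Colon carcinoma cells rely on these systems to keep reactive oxygen species in check.

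The stretches of DNA just before the start of 4 of the measured genes are shown because they hold the letters of an antioxidant response element core or of the related AP-1 element. The RefSeq table used, build GRCh38.p14, held 6 of the 8 measured genes, all but HMOX1 and SLC7A11, and each stretch is the 150 bases before an annotated start, written 5′ to 3′ on the strand of the gene, with the motif letters in capitals. TXNRD1 has 2 annotated starts.
GCLM (chr1:93909431-93909580, minus strand): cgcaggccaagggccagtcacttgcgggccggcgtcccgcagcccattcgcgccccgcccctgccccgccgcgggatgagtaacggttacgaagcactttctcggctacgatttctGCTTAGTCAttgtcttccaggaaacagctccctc
ME1 (chr6:83431052-83431201, minus strand): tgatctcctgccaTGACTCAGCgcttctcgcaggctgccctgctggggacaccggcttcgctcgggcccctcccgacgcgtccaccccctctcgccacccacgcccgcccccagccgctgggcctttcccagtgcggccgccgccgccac
TXNRD1, upstream start (chr12:104215629-104215778, plus strand): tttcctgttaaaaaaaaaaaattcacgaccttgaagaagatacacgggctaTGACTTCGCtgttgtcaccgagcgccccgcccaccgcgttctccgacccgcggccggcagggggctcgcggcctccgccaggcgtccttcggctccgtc
TXNRD1, downstream start (chr12:104286882-104287031, plus strand): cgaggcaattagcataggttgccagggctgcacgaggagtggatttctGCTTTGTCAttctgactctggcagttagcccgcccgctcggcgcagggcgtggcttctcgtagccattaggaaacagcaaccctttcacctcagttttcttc
OSGIN1 (chr16:83953090-83953239, plus strand): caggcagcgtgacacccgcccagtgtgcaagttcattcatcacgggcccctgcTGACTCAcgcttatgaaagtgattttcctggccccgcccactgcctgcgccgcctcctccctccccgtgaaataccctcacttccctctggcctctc

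The core searched for was TGACNNNGC, on both strands, in a window from 250 bases before to 50 bases after each start. It was found in 13.3% of 35116 such windows, so a match alone is common. The GCLM window held it once, as GCTTAGTCA, the reverse complement, with its first base 34 bases before the start. The ME1 window held it as TGACTCAGC, beginning 137 bases before the start, and again as GCACCGTCA just after the start. The upstream TXNRD1 window held TGACTTCGC, 99 bases before the start, and GCTCCGTCA, which begins 8 bases before the start and runs across it and so is not in capitals. The downstream TXNRD1 window held GCTTTGTCA, 102 bases before that start. The AP-1 element TGANTCA, which reads the same on both strands, was present in 7.71% of all windows. It lay in the OSGIN1 window, 97 bases before the start, and inside the element of ME1. The GCLC and SRXN1 windows held neither. These matches describe letters only, and genes with a core fell on both sides of the expression comparison, with GCLM and ME1 on average lower and TXNRD1 on average higher in the knockout.

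The arrays each gave log2 values for 19458 probe sets, and their number limits the precision. The array medians were 7.41, 7.80 and 7.41 in knockout arrays 1, 2 and 3, and 7.71, 7.36 and 7.48 in wild-type arrays 1, 2 and 3, so that knockout array 2 and wild-type array 1 stood above the rest. BRCA2 itself was not analysed here, which leaves the labels of the genotypes unchecked by their target. Epithelial markers were present, with EPCAM at 9.75 to 10.31 in the knockout and 9.47 to 10.10 in the wild type and the keratin gene KRT18 at 12.24 to 12.33 in the knockout and 11.95 to 12.05 in the wild type. VIL1 and CDH17, markers of differentiated enterocytes, were below every array median, with VIL1 at 4.76 to 6.91 in the knockout and 5.14 to 5.91 in the wild type. All 7 epithelial markers had a higher mean in the knockout (median log2 difference 0.60), none was called, and their average per array was 9.65 to 10.3 in the knockout and 9.27 to 9.61 in the wild type. The 8 measured markers of blood, endothelium, fibroblasts and liver averaged 6.22 to 7.22 in the knockout and 5.91 to 6.76 in the wild type. The 2 widest of these shifts exceeded that of every measured gene of the set. CDH1, the E-cadherin gene, was at 11.34, 11.33 and 11.64 in the knockout and 10.28, 10.34 and 10.25 in the wild type, and COL1A1, a fibroblast collagen gene, at 8.68, 8.38 and 8.84 in the knockout and 7.66, 7.57 and 7.38 in the wild type. Neither overlapped, a pattern seen with higher knockout values in 2336 of the 19458 probe sets. The differences of 1.15 ± 0.24 and 1.10 ± 0.26 missed the threshold (limma, adjusted p = 0.127 and 0.159, unadjusted 0.00195 and 0.00352). The part of these shifts in the results below was not tested.

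The comparison asked whether the NRF2 antioxidant programme differed between BRCA2 knockout and wild-type cells. No measured gene of the set passed the test. The 5 genes of glutathione synthesis, cystine import, NADPH supply and heme breakdown had a lower mean in the knockout, by 0.40 to 0.73 on the log2 scale. The other 3, which serve the thioredoxin system or restrain growth under oxidative stress, had a higher mean, by 0.32 to 0.52. This grouping followed the signs, and a split by function was not tested. In limma, 0 of 8 were called at an adjusted p under 0.05 in either direction, and 0 of 8 had an unadjusted p under 0.05. Over all probe sets 0.570% were called, 0.416% as higher and 0.154% as lower in the knockout, and 12.2% had an unadjusted p under 0.05. The smallest absolute difference among called probe sets was 1.56, and the largest among the 8 genes was 0.73.

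Glutathione is built from glutamate, cysteine and glycine, and the first step is the rate-limiting one. GCLC encodes the catalytic subunit of the ligase for that step. It was at 8.39, 9.35 and 8.36 in knockout arrays 1, 2 and 3, and at 9.81, 8.70 and 9.36 in wild-type arrays 1, 2 and 3. Knockout array 2 lay among the wild-type values, so the genotypes overlapped. The means were 8.70 ± 0.56 in the knockout and 9.29 ± 0.56 in the wild type (SD, n = 3 arrays each), and the difference was -0.59 ± 0.41 (SE, limma, adjusted p = 0.610).

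GCLM encodes the modifier subunit that raises the efficiency of GCLC. Its values were 5.92, 7.24 and 6.18 in knockout arrays 1, 2 and 3, and 7.82, 6.66 and 7.04 in wild-type arrays 1, 2 and 3. As for GCLC, knockout array 2 stood above the other 2 knockout arrays and overlapped the wild type. The mean was 6.45 ± 0.70 in the knockout and 7.17 ± 0.59 in the wild type. The difference of -0.73 ± 0.46 was the largest of the set, a level 0.605 times that of the wild type with a 95% interval from 0.286 to 1.28 times (limma, adjusted p = 0.570).

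SLC7A11 encodes the transporter subunit that exchanges glutamate for cystine, the source of cysteine for glutathione. It measured 10.04, 10.99 and 10.47 in knockout arrays 1, 2 and 3, and 11.49, 10.91 and 11.04 in wild-type arrays 1, 2 and 3. The overlap was narrow, with only knockout array 2 above wild-type array 2. The means were 10.50 ± 0.48 in the knockout and 11.15 ± 0.31 in the wild type, and the difference of -0.65 ± 0.33 had the smallest adjusted p of the set (limma, 0.499, unadjusted 0.0941). Its partner SLC3A2, the heavy chain of the transporter, differed by 0.04 ± 0.26 (adjusted p = 0.960).

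ME1, the cytosolic malic enzyme gene, supplies NADPH for reducing glutathione and thioredoxin. Its values were 7.66, 8.72 and 7.94 in knockout arrays 1, 2 and 3, and 9.25, 7.78 and 8.73 in wild-type arrays 1, 2 and 3. Both genotypes spread over more than the difference between them, and they overlapped. The means were 8.11 ± 0.55 in the knockout and 8.59 ± 0.74 in the wild type, a difference of -0.48 ± 0.46 (limma, adjusted p = 0.712).

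HMOX1 encodes the inducible heme oxygenase, which opens heme to biliverdin, iron and carbon monoxide, and is repressed by BACH1. It was at 7.18, 7.31 and 7.32 in knockout arrays 1, 2 and 3, and at 7.41, 7.84 and 7.78 in wild-type arrays 1, 2 and 3. All knockout values lay below all wild-type values, which held for no other of the 8 genes. The means were 7.27 ± 0.07 in the knockout and 7.67 ± 0.23 in the wild type, and the difference was -0.40 ± 0.25 (limma, adjusted p = 0.566). This 1 gene in 8, or 12.5%, stands against 19.7% of all probe sets, whose genotypes were fully apart in one direction or the other, and 7.70% that were fully apart and lower in the knockout. HMOX2, the constitutive heme oxygenase gene, differed by 0.16 ± 0.26 and its genotypes overlapped.

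TXNRD1 encodes the cytosolic thioredoxin reductase, a selenoprotein. It reached 10.85, 11.08 and 11.33 in knockout arrays 1, 2 and 3, against 10.98, 10.40 and 10.32 in wild-type arrays 1, 2 and 3. Only wild-type array 1 reached into the knockout range. The means were 11.09 ± 0.24 in the knockout and 10.57 ± 0.36 in the wild type, a difference of 0.52 ± 0.29 (limma, adjusted p = 0.530), or 1.44 times with a 95% interval from 0.887 to 2.32 times.

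SRXN1 encodes sulfiredoxin, which restores overoxidized peroxiredoxins. Its values were 10.57, 10.33 and 11.03 in knockout arrays 1, 2 and 3, and 9.98, 10.58 and 10.40 in wild-type arrays 1, 2 and 3. The genotypes overlapped, and the highest value was on knockout array 3. The difference was 0.32 ± 0.31, between means of 10.64 ± 0.36 in the knockout and 10.32 ± 0.31 in the wild type (limma, adjusted p = 0.710).

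OSGIN1 encodes an oxidative stress induced growth inhibitor. It was at 8.60, 8.19 and 8.85 in knockout arrays 1, 2 and 3, and at 7.91, 8.32 and 7.99 in wild-type arrays 1, 2 and 3. Knockout array 2 fell below wild-type array 2, and the other knockout values were above the wild-type range. The means were 8.55 ± 0.34 in the knockout and 8.08 ± 0.22 in the wild type, a difference of 0.47 ± 0.29 (limma, adjusted p = 0.557).

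**Figure D1:**
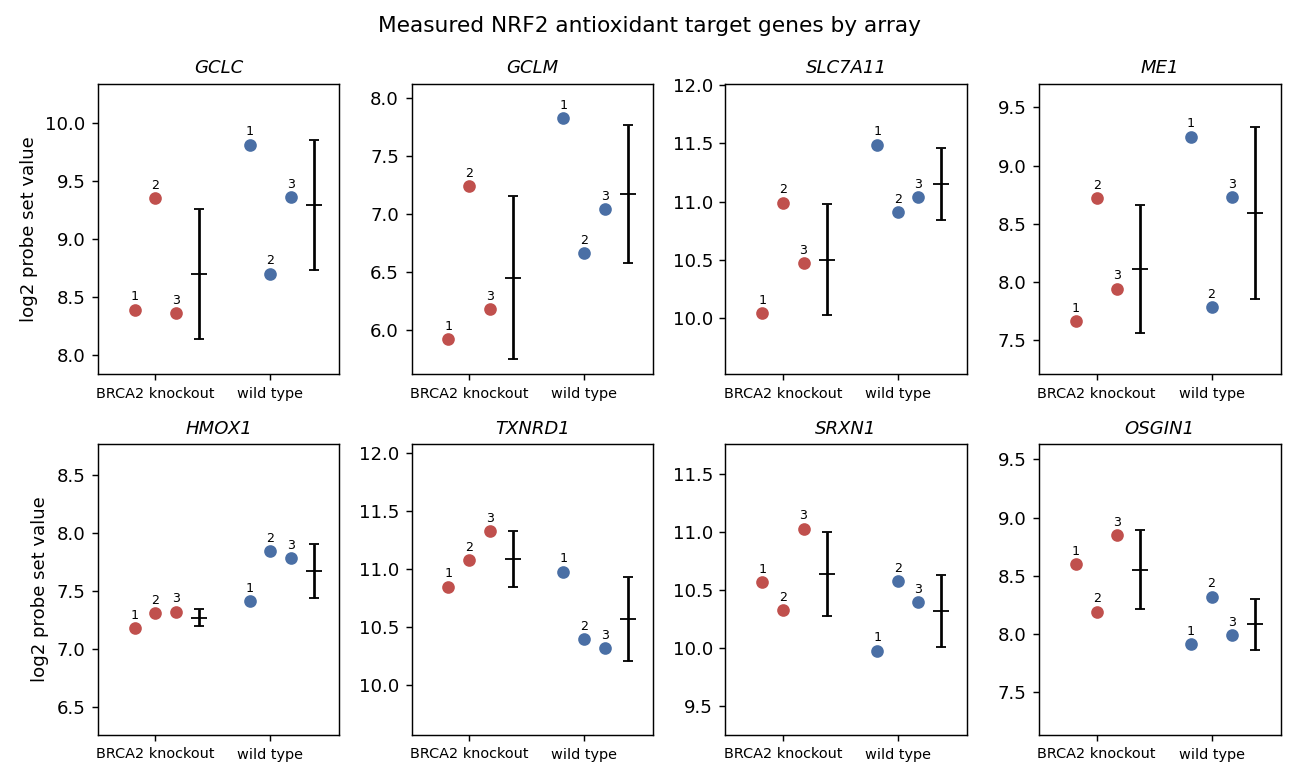
Log2 probe set values of the 8 measured NRF2 antioxidant target genes (vertical axis, the same span of log2 units in each panel) on the knockout arrays (red, left) and wild-type arrays (blue, right), numbered by replicate, with the mean and SD as black bars. The genotypes overlap in every panel but that of HMOX1, where knockout values end at 7.32 and wild-type values begin at 7.41.

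The 95% interval of the difference held 0 for all 8 genes. The intervals together ran from -1.81 for GCLM to 1.22 for TXNRD1, that is from 0.286 to 2.32 times the wild-type level, so that differences of those sizes were within what the 6 arrays allow. Of the 8 genes 62.5% had a lower mean in the knockout, against 48.7% of all probe sets, and the median difference was -0.44 against 0.02 for all probe sets. The size of that median rested in part on single arrays, as leaving out wild-type array 1 gave -0.239 and leaving out knockout array 2 gave -0.605.

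The sizes of single genes moved with 1 array left out, though each of the 8 kept its sign. Without wild-type array 1 the difference was -0.40 for GCLM, -0.33 for GCLC, -0.15 for ME1 and 0.15 for SRXN1. Without knockout array 1 it was -0.46 for GCLM, -0.42 for SLC7A11 and -0.26 for ME1. Without knockout array 2 it was -1.12 for GCLM, -0.91 for GCLC and -0.79 for ME1. SRXN1 was at 0.13 without knockout array 3, and ME1 at -0.88 without wild-type array 2. HMOX1, TXNRD1 and OSGIN1 stayed within 1.5 times of their differences over all 6 arrays, at -0.54 to -0.32, 0.40 to 0.73 and 0.32 to 0.65.

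The spread within a genotype was large for a subset of the genes. For GCLC, GCLM, SLC7A11 and ME1, the highest wild-type value was on array 1 and the highest knockout value on array 2, the arrays of highest median. That order was seen in 4 of 8 genes and in 39.1% of all probe sets. In GCLM, knockout array 2 exceeded the mean of the other knockout arrays by 1.20, and wild-type array 1 exceeded the mean of the other wild-type arrays by 0.97. In ME1 these gaps were 0.92 and 0.99, in GCLC 0.98 and 0.78, and in SLC7A11 0.73 and 0.52. The corresponding medians over all probe sets were 0.28 and 0.20. These are medians of signed gaps, in which opposite signs offset each other, so they do not measure typical spread. SRXN1 and OSGIN1 went the other way, with gaps of -0.47 and -0.51 for SRXN1 and -0.54 and -0.25 for OSGIN1. In GCLM, GCLC and ME1 both gaps were larger than the difference between the genotypes.

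**Figure D2:**
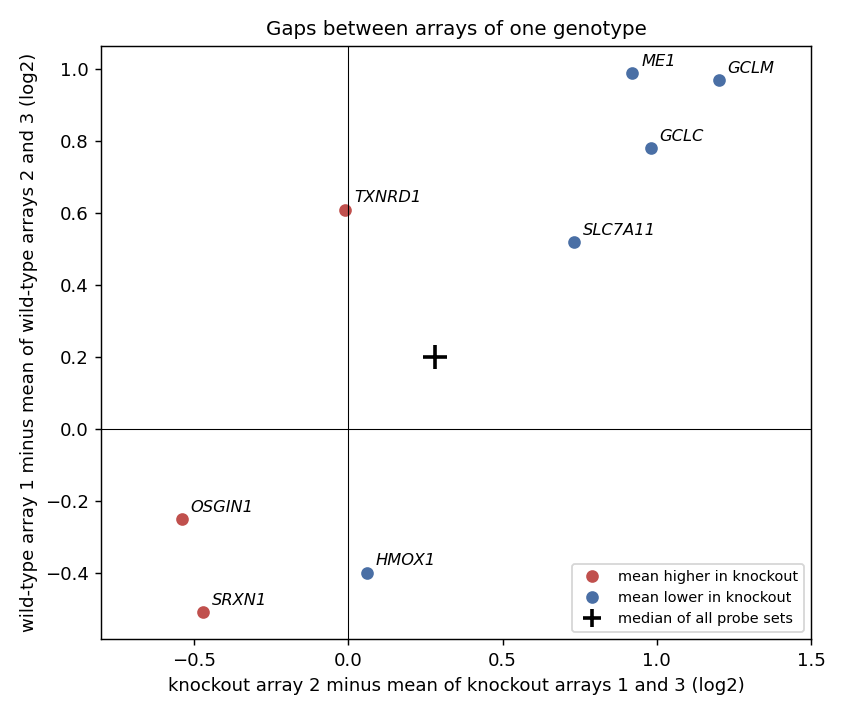
For each of the 8 genes, the log2 gap between knockout array 2 and the mean of knockout arrays 1 and 3 (horizontal) and between wild-type array 1 and the mean of wild-type arrays 2 and 3 (vertical), red where the knockout mean was higher and blue where it was lower. GCLM, GCLC, ME1 and SLC7A11 lie at the upper right, beyond the median of all probe sets (cross, 0.28 and 0.20), and SRXN1 and OSGIN1 at the lower left.

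Without those 2 arrays the differences were -0.80 for GCLM, -0.72 for SLC7A11, -0.65 for GCLC, -0.56 for HMOX1, -0.46 for ME1, 0.31 for SRXN1, 0.57 for OSGIN1 and 0.73 for TXNRD1. Each had the same sign as with all 6 arrays. The genotypes then did not overlap for 6 of 8 genes, all but ME1 and SRXN1, against 47.3% of all probe sets. For GCLC, GCLM, SLC7A11 and OSGIN1 the overlap had come from knockout array 2 alone, and for TXNRD1 from wild-type array 1 alone. Leaving out these arrays had to remove it, so this share is not a separate result about the set. None of the 8 genes was called (limma, adjusted p from 0.381 to 0.675), and GCLM alone had an unadjusted p under 0.05 (0.0451). Of all 19458 probe sets, 1341 had such a p with a lower and 1137 with a higher mean in the knockout, so 1 gene of 8 does not stand out.

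Next, the genes that control NRF2 were compared. Of 10 listed, 6 were measured, 3 with a higher and 3 with a lower mean in the knockout (median -0.02), and none was called. NFE2L2 itself was not measured by a probe set with its symbol alone. KEAP1, its inhibitor, was at 8.03 ± 0.46 in the knockout and 8.21 ± 0.18 in the wild type, a difference of -0.18 ± 0.31 (limma, adjusted p = 0.846) that was 0.08 without knockout array 1. BACH1, the competing repressor, was at 8.64 ± 0.44 in the knockout and 8.31 ± 0.44 in the wild type (difference 0.33 ± 0.35, adjusted p = 0.746), and its difference ran from 0.16 without knockout array 2 to 0.58 without wild-type array 1.

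The small MAF proteins, which lack an activation domain of their own, were represented by MAFF and MAFG. MAFF measured 8.71, 8.52 and 9.13 in knockout arrays 1, 2 and 3, and 7.68, 7.32 and 7.83 in wild-type arrays 1, 2 and 3. All knockout values were above all wild-type values, by a difference of 1.17 ± 0.29, or 2.26 times, which missed the threshold (limma, adjusted p = 0.174, unadjusted 0.00455). Of all 19458 probe sets, 2336 were fully apart and higher in the knockout. That background also applies to the genes and probe sets below that are described as higher without overlap. For those lower without overlap, the background is 1499 of the 19458. MAFG differed by -0.19 ± 0.31 (adjusted p = 0.840), or 0.06 without wild-type array 1, and its genotypes overlapped.

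Further NRF2 targets were examined as a list of 30 genes, of which 20 were measured. Of these, 13 had a lower and 7 a higher mean in the knockout, with a median of -0.19, and none was called. An unadjusted p under 0.05 was found for 3 of 20, against 12.2% of all probe sets, and 6 of 20, or 30%, showed no overlap, against 19.7%. The widest positive difference was that of GSTM3, a glutathione transferase gene of the mu class, at 6.11, 4.52 and 5.71 in knockout arrays 1, 2 and 3, and 3.71, 4.84 and 2.41 in wild-type arrays 1, 2 and 3. Knockout array 2 fell below wild-type array 2, and the difference of 1.79 ± 0.68 rested on low values (limma, adjusted p = 0.354) and was 1.17 without wild-type array 3. MGST1, the microsomal glutathione transferase gene, was at 10.61 ± 0.18 in the knockout and 10.00 ± 0.34 in the wild type without overlap (difference 0.61 ± 0.28, adjusted p = 0.451).

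On the lower side, BLVRA encodes biliverdin reductase A, which acts on the product of heme oxygenase. It was at 7.79 ± 0.40 in the knockout and 8.56 ± 0.40 in the wild type, a difference of -0.77 ± 0.33 (limma, adjusted p = 0.416), and the genotypes overlapped. PIR, the pirin gene, had a difference of the same size, -0.77 ± 0.77 (adjusted p = 0.723), but knockout array 3 was at 2.86, and the difference was 0.16 without that array. The values on the other knockout arrays were 5.74 and 5.55, against 5.91, 4.90 and 5.65 in the wild type. FTL, the ferritin light chain gene, and ABCC1, a gene for an exporter of glutathione conjugates, were named after their values were seen, as the other 2 of the 3 genes with an unadjusted p under 0.05. FTL was at 7.90 ± 0.17 in the knockout and 8.55 ± 0.28 in the wild type (difference -0.65 ± 0.27, adjusted p = 0.395). ABCC1 was at 10.31 ± 0.24 in the knockout and 9.70 ± 0.10 in the wild type (difference 0.61 ± 0.25, adjusted p = 0.402). Neither overlapped.

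**Figure D3:**
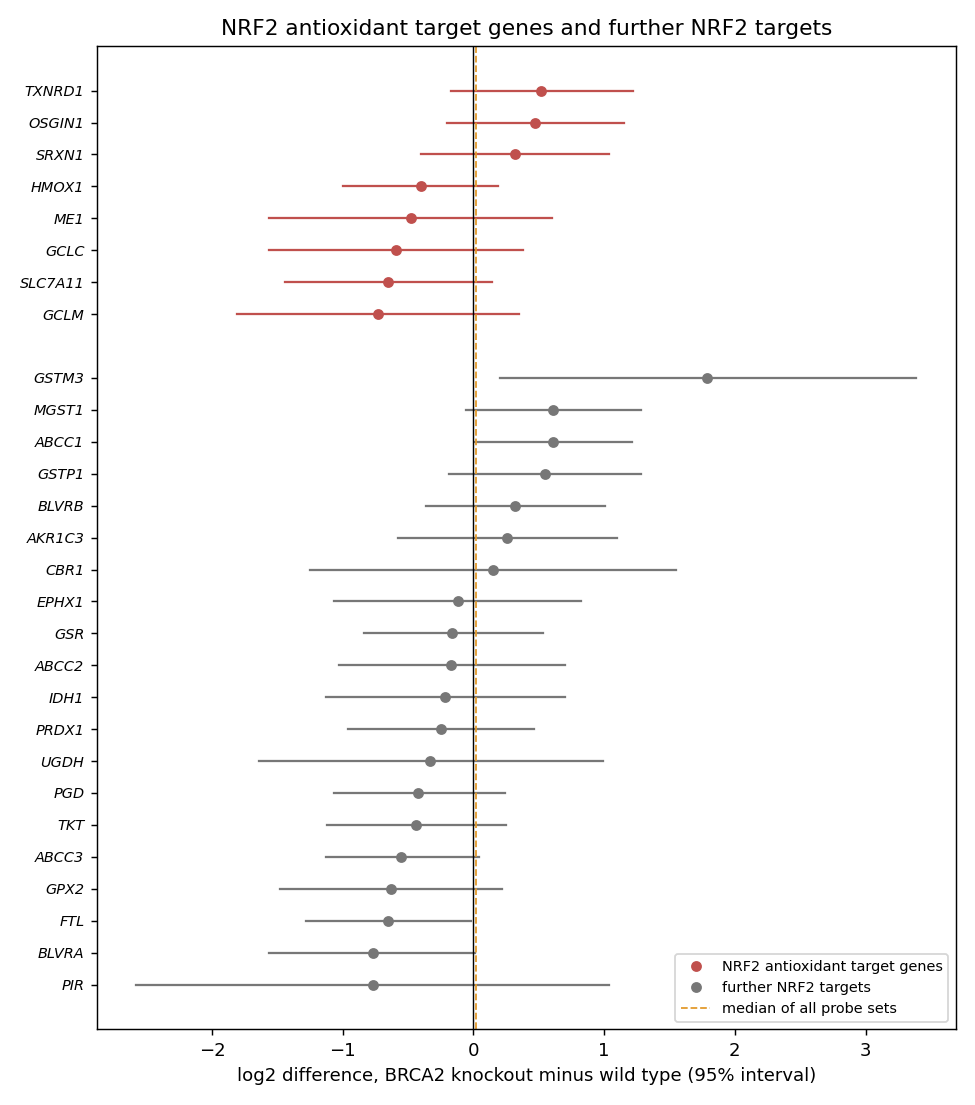
Log2 differences, knockout minus wild type (horizontal axis), with 95% intervals for the 8 measured antioxidant target genes (red, top) and 20 further NRF2 targets (grey), and the median of all probe sets (dashed, 0.02). All 8 intervals in red hold 0, and in grey those of GSTM3, ABCC1 and FTL do not before adjustment over all probe sets.

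Genes for other enzymes, transporters and binding proteins of glutathione and thioredoxin metabolism were listed as partners of the set, and 19 of 22 were measured. Of these, 12 had a higher and 7 a lower mean in the knockout (median 0.12), and none was called. CHAC1 encodes an enzyme that degrades glutathione in the cytosol. It measured 10.35, 10.37 and 10.60 in knockout arrays 1, 2 and 3, and 9.53, 9.73 and 9.52 in wild-type arrays 1, 2 and 3. The genotypes did not overlap, and the difference of 0.85 ± 0.24, or 1.80 times, missed the threshold (limma, adjusted p = 0.231, unadjusted 0.00956). CBS, the first enzyme of transsulfuration, differed by 0.70 ± 0.51 (adjusted p = 0.622), with 7.26 on knockout array 3 and 5.25 and 6.03 on knockout arrays 1 and 2. Its difference was 0.16 without knockout array 3 and 1.17 without knockout array 1.

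GLRX, the cytosolic glutaredoxin gene, had the most negative difference of these partners, -0.98 ± 0.53 (limma, adjusted p = 0.512). It was at 5.74, 6.97 and 5.13 in knockout arrays 1, 2 and 3, and at 7.45, 6.33 and 7.00 in wild-type arrays 1, 2 and 3, so that knockout array 2 and wild-type array 1 were again the highest of their genotype. The difference was -0.57 without knockout array 3 and -1.49 without knockout array 2. TXNRD2 encodes the mitochondrial thioredoxin reductase and was at 6.84 ± 0.43 in the knockout and 7.59 ± 0.31 in the wild type. Its genotypes did not overlap, and its difference of -0.74 ± 0.32 (adjusted p = 0.420) was opposite in sign to that of TXNRD1 (0.52 ± 0.29). Whether the reductase genes differ from each other in their response was not tested.

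Among other antioxidant enzymes, 8 of 10 were measured, 5 with a higher and 3 with a lower mean in the knockout (median 0.09), and none was called. ME2, the mitochondrial malic enzyme gene, was at 10.92, 11.02 and 11.04 in knockout arrays 1, 2 and 3, and at 10.63, 10.63 and 10.64 in wild-type arrays 1, 2 and 3. The difference of 0.36 ± 0.23 showed no overlap but did not pass (limma, adjusted p = 0.574). MSRB2 and MSRA, genes for methionine sulfoxide reductases, differed by 0.21 ± 0.25 and -0.55 ± 0.42, and CAT, the catalase gene, by -0.33 ± 0.27 (adjusted p from 0.641 to 0.779). With 1 array left out, MSRB2 was as low as 0.10 (without wild-type array 1), MSRA ranged from -0.99 (without wild-type array 2) to -0.27 (without wild-type array 1), and CAT was at -0.16 without knockout array 3.

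**Figure D4:**
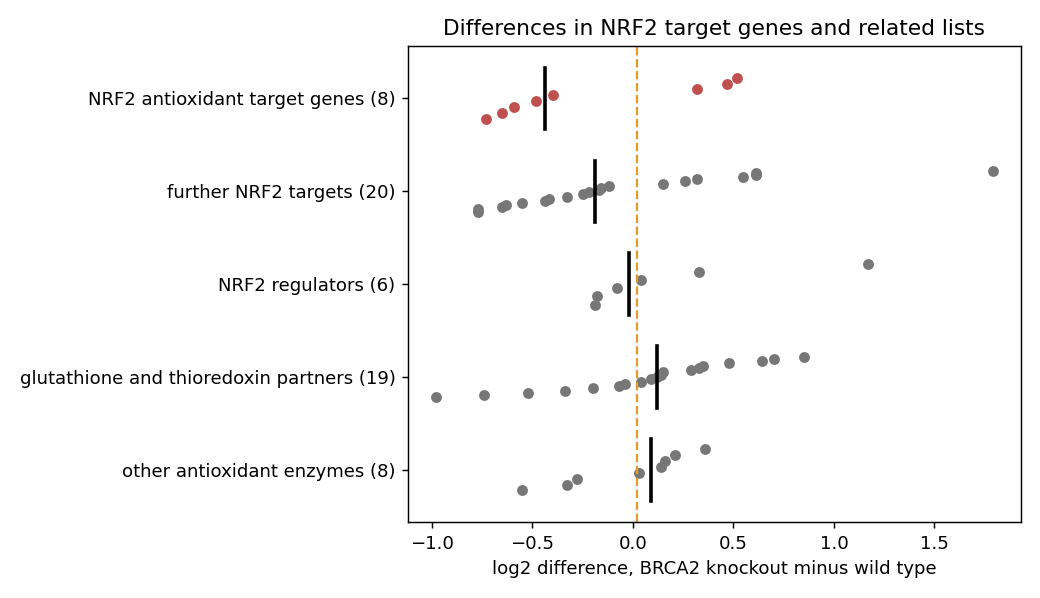
Log2 differences, knockout minus wild type (horizontal axis), of each measured gene (points) in the antioxidant target set and 4 related lists, with the list median (black bar), the number measured in brackets and the median of all probe sets (dashed, 0.02). The medians are -0.44 for the 8 antioxidant target genes, -0.19 for further targets, -0.02 for regulators, 0.12 for glutathione and thioredoxin partners and 0.09 for other antioxidant enzymes.

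The genes whose values followed the average of the 8 most closely over the 6 arrays, after each array's median was subtracted, were TAS2R19, CPA4, SLC67A1, BTC and GCNA, with Pearson r from 0.977 to 0.989 among 13131 genes. The 6 points are arrays of 2 lines, so this is a description only. The average was of unscaled values, so genes with a wide spread across arrays weigh more in it. SRXN1 and OSGIN1 had gaps between arrays opposite in sign to those of GCLM. Likeness to the average is therefore not likeness to each of the 8. CPA4, a carboxypeptidase gene, differed by -0.60 ± 0.35 and BTC, the betacellulin gene, by -0.59 ± 0.35, or by -0.31 and -0.27 without knockout array 1. GCNA, a germ cell nuclear protein gene, was near the bottom of the scale, at 0.14, 2.26 and 3.55 in knockout arrays 1, 2 and 3, and 5.26, 4.19 and 3.95 in wild-type arrays 1, 2 and 3. None of the 5 was called (limma, adjusted p from 0.296 to 0.631).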

How the data were processed

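Total RNA of 6 HCT116 samples was hybridised to Affymetrix whole-transcript arrays, per the labels' protocols. The authors deposited 1 log2 value per probe set and array, a scale taken here from the range of the values. The tools listed in the submitters' processing notes are RMA and R 2.11.1, with hg18 as the build, and the RMA steps that were run are not stated. The array medians differ, so the deposited values were not quantile normalized at the level of probe sets. Whether probe intensities were, before they were combined into probe sets, is not stated.

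The platform annotation gave 1 symbol to 13301 probe sets, several to 2044 and none to 4113, and symbols were updated through 13280 gene identifiers found in RefSeq (GRCh38.p14). A gene with several probe sets was read from the one of highest mean. The genotypes were compared over all 19458 probe sets with limma 3.58.1 (lmFit, eBayes, R 4.3.3), genotype as the single factor and no filter. The Benjamini-Hochberg adjustment covered the whole table, and the threshold was 0.05. Differences are knockout minus wild type. The code was tested on simulated data.

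The set and the lists were chosen with earlier results of these data known. Genes named are the 8 measured, NFE2L2, KEAP1, BACH1, the called genes and the 2 largest positive and 2 largest negative differences of each list, and the 5 most correlated with the average of the 8. SLC3A2, HMOX2, FTL, ABCC1 and the single cell type markers were named after their values were seen. Alternatives were scaling, a filter, a floor, other variance estimates, array weights, a block for the replicate number and leaving arrays out.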

Additional observations from a re-analysis of the deposited data

How the results depend on the processing

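With 3 arrays per genotype the intervals are wide, and a difference that missed the threshold is not shown to be absent. For the 8 measured antioxidant target genes, 0 were called in each of 17 alternatives and each kept its sign, with 5 lower and 3 higher, but sizes moved, for ME1 from -0.88 to -0.15 and for SRXN1 from 0.13 to 0.48. The filter, the floor, the block, averaging of probe sets and the other variance estimates left each difference as it was. The sign could therefore change only with scaling, array weights or arrays left out. The smallest adjusted p was 0.124, for TXNRD1 with array weights (limma). In that setting 6 of the 8 had an unadjusted p under 0.05. The share of all probe sets under 0.05 there was not computed, and calls over all probe sets rose from 111 to 778, so the 6 are not a result about the set. None of the further NRF2 targets was called in any of the 17. The number of all probe sets called, 111 with the values as deposited, was 778 with array weights, 396 with a variance trend, 184 without the dimmest 30% of probe sets, 175 with each array's median subtracted, 174 after quantile normalization and 169 with values under 4 set to 4. It was 7 without the 2 arrays of highest median, and 24 to 63 with 1 array left out. With the replicate number as a block it was 3. Deviations from the genotype means correlated at -0.238, -0.427 and 0.058 between same-numbered arrays. Of the 6 arrays, wild-type array 3 alone correlated best with its own number. With 3 arrays per genotype the deviations of a probe set sum to 0, so this check cannot exclude a pairing by the labels' replicate numbers. With 1 array left out, MAFG ranged from -0.32 to 0.06 (without wild-type array 1), KEAP1 from -0.37 to 0.08 (without knockout array 1) and PIR from -1.28 to 0.16 (without knockout array 3), and MAFG was also positive without the 2 arrays of highest median (0.03). CHAC1 was called with array weights (0.93, adjusted p = 0.0492). The causes of these shifts were not tested.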

Other observations

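The probe set annotated to both NQO1 and NFAT5 names neither gene on its own and was left out of the set. It measured 10.32, 10.29 and 10.24 in knockout arrays 1, 2 and 3, and 11.21, 11.30 and 11.43 in wild-type arrays 1, 2 and 3. The genotypes did not overlap, and the difference was -1.03 ± 0.23 (limma, adjusted p = 0.149, unadjusted 0.00299). Of all probe sets, 7.70% were fully apart and lower in the knockout. Knockout array 2 and wild-type array 1 did not stand apart here, unlike in GCLM or GCLC.

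A probe set annotated to both SCRT2 and SRXN1 was likewise left out. It was at 5.92, 5.96 and 6.11 in knockout arrays 1, 2 and 3, and at 4.94, 5.16 and 4.81 in wild-type arrays 1, 2 and 3, a difference of 1.03 ± 0.24 without overlap (limma, adjusted p = 0.165). The probe set annotated to SRXN1 alone differed by 0.32 ± 0.31 with overlap.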
